A study of Mus musculus with 74 samples.

Results

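Small leucine-rich proteoglycans (SLRPs) are secreted core proteins built from leucine-rich repeats, most of which carry chondroitin, dermatan or keratan sulfate chains. They bind collagen fibrils in the stroma, set fibril diameter and spacing, and hold growth factors such as TGF-beta in the matrix. In mammary tumors they are made mainly by fibroblasts. The 8 members described here were picked by gene symbol out of 22079 distinct symbols with a group mean in at least 1 table. The rule uses no measured value, but these 8 were chosen with earlier results of these data known. They are Dcn, Bgn and Aspn of class I, Lum, Fmod and Prelp of class II, Ogn of class III and Chad of class IV. All 8 had group means in 4 of the 5 tables used, and 7 had them in the Her2 table, where Fmod had no row.

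The series holds RNA-seq of 74 samples in 12 groups, which are the primary mammary tumor (PT) and the lung metastasis (Lung met) of 6 mouse models of metastatic mammary cancer. The driver models were MMTV-Her2, C3TAg (C3Tag below) and MMTV-Myc, each a transgene on the FVB background, and the PyMT-F1 models were female F1 offspring of FVB males carrying MMTV-PyMT and females of the strains labelled BALB/NJ (BALB; BALB/cJ in the study's methods), SEA/GNJ (SEAGN) and AKR/J. Titles gave 6 PT and 6 Lung met samples per model, and 7 and 7 for C3Tag, with PT and Lung met of a model carrying the same animal identifiers. Animals received no treatment and no age was given. Every animal carried 1 of the transgenes, and no transgene-free tissue was compared. The MMTV promoter acts chiefly in mammary epithelium. PyMT animals were aged to a humane endpoint with their tumors in place, whereas in the driver models the tumors of animals with a single lesion were resected and the animals aged further. All primary tumors of an animal were sampled into 1 vial, and metastases were used whole.

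The deposited tables hold 1 normalized mean count per gene and tissue, averaged by the authors over the samples of a group, and no value for a single sample. The spread between animals is therefore unknown here, no test was possible, and every difference below is a difference between the authors' group means whose error cannot be given. The Myc table holds no group means and is not described further. In the BALB, SEAGN and AKR samples, titles and genotype labels disagreed for part of the samples. The table deposited under AKR also uses the gene identifiers of the reference mouse annotation where the BALB and SEAGN tables use those of a BALB/cJ annotation, and its ratios are the ones the study lists for another PyMT cross (BL6), so the strain of its animals is uncertain. Values from it are given under the words "table deposited under AKR". The means of all genes in a tissue summed to between 6.83e+06 and 7.73e+06 in BALB and SEAGN and to between 2.34e+07 and 4.09e+07 in the other tables, so levels are compared only within a table. In C3Tag PT, 1 gene (Gm22614) held 38.3% of the summed mean. The median log2 ratio of all genes lay between -0.001 and 0.03 in all 5 tables.

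The members lie in small clusters of the mouse genome (GRCm38, GENCODE M21). Dcn (chr10:97479609-97518143, plus strand) and Lum (chr10:97565128-97572703, plus strand) are 47 kb apart. Aspn (chr13:49544443-49567565, plus strand) and Ogn (chr13:49608046-49624501, plus strand) flank Omd and follow Ecm2, and all 4 genes sit inside the antisense gene Cenpp. Prelp (chr1:133910304-133921414, minus strand) and Fmod (chr1:134037254-134048277, plus strand) are 116 kb apart. Bgn (chrX:73483602-73495933, plus strand) and Chad (chr11:94565047-94569127, plus strand) stand alone among the members, and Chad lies within the span of Acsf2 on the opposite strand without sharing an exonic base with it.

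RefSeq promoter entries (GRCm38.p6) matched 6 of the 8 members. Dcn and Lum had no entry. The 80 bases before the start are shown for Aspn and Ogn, since these neighbours differed in direction between the tissues, for Prelp, which was higher in Lung met in every table, for Chad, which differed most between tables, and for Bgn, the member with the highest level. Capitals mark matches, on either strand, to the TATA box letters TATAAA, the nuclear factor Y letters CCAAT, the AP-1 letters TGANTCA or the GC box letters GGGCGG. Starts here are those of RefSeq and can differ from the GENCODE starts given above. The printed bases of Prelp reach into its GENCODE span, and those of Ogn end before its span begins.
Aspn (chr13:49544363-49544442, plus strand): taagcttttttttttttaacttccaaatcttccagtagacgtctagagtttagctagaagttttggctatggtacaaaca
Ogn (chr13:49607935-49608014, plus strand): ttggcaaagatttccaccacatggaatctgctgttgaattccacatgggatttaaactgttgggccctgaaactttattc
Prelp (chr1:133921402-133921481, minus strand): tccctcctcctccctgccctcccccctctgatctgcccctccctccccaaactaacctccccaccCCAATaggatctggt
Chad (chr11:94564967-94565046, plus strand): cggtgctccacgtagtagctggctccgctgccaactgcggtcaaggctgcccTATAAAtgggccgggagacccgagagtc
Bgn (chrX:73483521-73483600, plus strand): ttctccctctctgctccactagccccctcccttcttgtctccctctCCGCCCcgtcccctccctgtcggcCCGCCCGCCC

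Of these 5 stretches, Chad alone held TATAAA, 28 bases before its start, and Bgn held GGGCGG on the minus strand at 34, 10 and 6 bases before its start, the last 2 overlapping. Prelp held CCAAT 15 bases before its start. Over the whole 250 bases searched, Aspn also held TATAAA at 207 and, on the minus strand, 178 bases and CCAAT on the minus strand at 229 bases, Ogn held TATAAA at 227 and, overlapping on the minus strand, 229 bases, and Chad held GGGCGG at 108 bases. Fmod held none of the 4 motifs, and TGANTCA was in none of the 6 windows. Among all 32851 promoters of the same length, the TATAAA letters were in 12.4%, the CCAAT letters in 33.8%, the TGANTCA letters in 6.75% and the GGGCGG letters in 32.7%. Aspn and Ogn thus had no match at all within the printed bases, and both held TATAAA on both strands within the 250 bases searched.

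Lum and Aspn were lower in Lung met than in PT in all 5 tables, each past 2-fold, whereas Prelp and Ogn were higher in Lung met in all 5. Dcn was lower in 4 tables and higher in C3Tag, Chad was lower in 4 and higher in C3Tag, and Bgn and Fmod stayed within 2-fold of PT in every table that listed them. The family thus had no common direction. The plot of log2 ratios by gene shows this split.

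**Figure D1:**
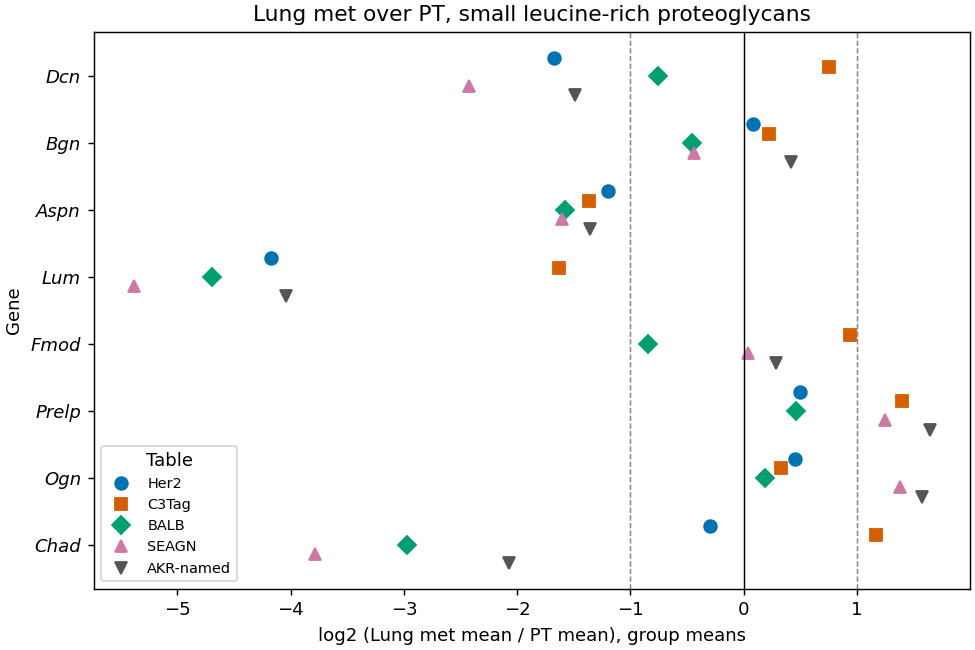
Each point is the log2 of the Lung met group mean over the PT group mean (horizontal axis) of 1 gene (vertical axis) in 1 table, with tables shown by marker and colour, "AKR-named" standing for the table deposited under AKR and dashed lines at 2-fold. The Lum points lie between -5.39 and -1.63 and the Aspn points between -1.61 and -1.20, while all Prelp and Ogn points lie right of 0.

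Decorin (Dcn), the dermatan sulfate proteoglycan that coats collagen I fibrils and binds TGF-beta, had a mean normalized count in PT of 854 in Her2, 729.7 in C3Tag, 270.3 in BALB, 335 in SEAGN and 1350.4 in the table deposited under AKR. Its Lung met means were 267, 1229, 159.9, 62.6 and 481 in the same order. The log2 ratios were -1.68, 0.75, -0.76, -2.42 and -1.49, so that Dcn was lower past 2-fold in 3 tables and higher in C3Tag alone. In SEAGN the PT mean was 5.36-fold that of Lung met. Levels were compared between genes per kb of exon, as far as the union of all exons stands for the expressed transcript. On that scale Dcn ranked, from the highest, between 3 and 5 among the members in PT and 3 to 7 in Lung met.

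Biglycan (Bgn), the closest relative of decorin and a ligand of Toll-like receptors when released from the matrix, was the member with the highest level per kb in both tissues of all 5 tables. Its PT means were 3614, 5218, 1628, 2032 and 4749 in Her2, C3Tag, BALB, SEAGN and the table deposited under AKR, and its Lung met means 3818, 6104, 1185, 1496 and 6339.9. Log2 ratios of 0.08, 0.23, -0.46, -0.44 and 0.42 put Bgn lower in the BALB and SEAGN tables and higher in the other 3, never past 2-fold. Among genes with an exon length it stood at percentiles 85.9 to 95.5 per kb in PT and 86.8 to 94.6 in Lung met. Relative to Bgn, the level per kb of Dcn was lower in Lung met in 4 tables, from 0.247 to 0.0731 in Her2, 0.173 to 0.141 in BALB, 0.172 to 0.0437 in SEAGN and 0.297 to 0.0792 in the table deposited under AKR. In C3Tag it was higher, 0.146 in PT and 0.21 in Lung met.

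Asporin (Aspn), the class I member with an aspartate tract in place of the glycosaminoglycan attachment site and a product of cancer-associated fibroblasts, gave the most even differences. Its PT means of 649, 337, 104, 125 and 454 stood against Lung met means of 282, 131, 34.8, 41.2 and 177. Log2 ratios were -1.20, -1.37, -1.58, -1.61 and -1.36, a range over tables of 0.40, which was the smallest of the 8 members. Between 0.724% and 1.21% of all genes of a table had a lower ratio. Its exons share 7 bases with Cenpp, which had log2 ratios of -0.44, -0.71, -0.40, 0.07 and -0.25, and whether reads were counted by strand is not given in the sources used here.

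Lumican (Lum), a keratan sulfate proteoglycan that binds the same collagen fibrils at a site of its own, had the lowest ratio of the members in each of the 5 tables. Its PT means were 419.8 in Her2, 412 in C3Tag, 115 in BALB, 198 in SEAGN and 893 in the table deposited under AKR. In Lung met the means were 23.3, 133, 4.45, 4.73 and 54.2. The PT mean was thus 18.0-fold that of Lung met in Her2, 3.1-fold in C3Tag, 25.9-fold in BALB, 41.8-fold in SEAGN and 16.5-fold in the table deposited under AKR. Log2 ratios were -4.17, -1.63, -4.69, -5.39 and -4.04. At Lung met means under 5 in BALB and SEAGN, the ratio depends on few reads per sample, and the sample values behind those means are unknown. Lum differed more between the tissues than its neighbour Dcn, with a quotient of Lum to Dcn per kb of 1.01 to 1.58 in PT and 0.0663 to 0.269 in Lung met. In PT the level of Lum per kb was thus at or above that of Dcn, and in Lung met it was below that of Dcn in all 5 tables. The PT order rests on the union exon lengths used, 5.84 kb for Dcn and 2.45 kb for Lum. Before division by length, the mean of Dcn was above that of Lum in both tissues of all 5 tables. The lower quotient in Lung met than in PT does not depend on these lengths.

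**Figure D2:**
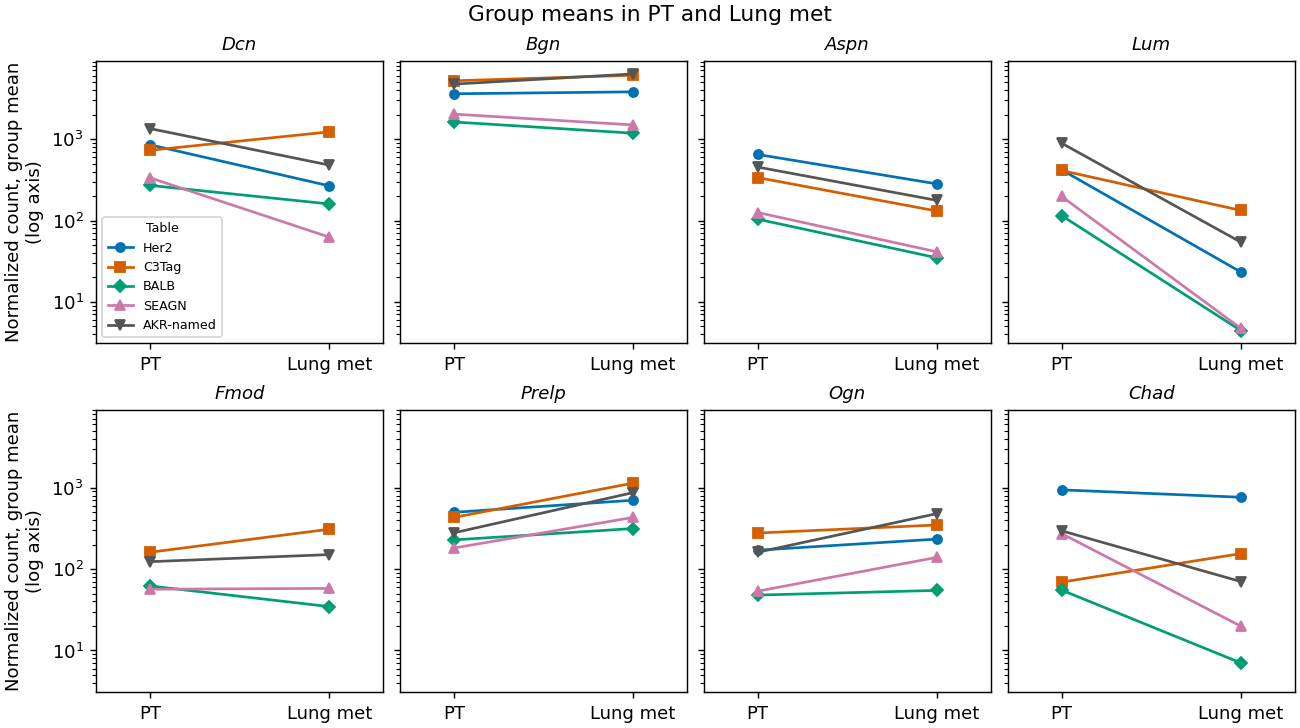
Group means of the normalized count (vertical log axis, shared by all panels) in PT and Lung met (horizontal axis), with 1 panel per gene and 1 line per table, and "AKR-named" standing for the table deposited under AKR. There are no error bars because the tables hold no values of single samples. Lum goes from 115 to 893 in PT to 4.45 to 133 in Lung met, and Bgn lines are nearly level.

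Fibromodulin (Fmod), which competes with lumican for a collagen site and promotes fibril maturation, was a low member with PT means of 161 in C3Tag, 62.1 in BALB, 56.6 in SEAGN and 123.4 in the table deposited under AKR. The Lung met means were 309, 34.6, 58.0 and 151. Log2 ratios of 0.94, -0.84, 0.03 and 0.29 had no common sign, and C3Tag and BALB stood at opposite ends without passing 2-fold. Fmod ranked 7 or 8 among the members per kb in PT wherever it was listed.

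Prelp, the proline- and arginine-rich member that binds heparan sulfate of basement membranes as well as collagen, was higher in Lung met in every table. PT means were 499, 432, 229, 182 and 279 in Her2, C3Tag, BALB, SEAGN and the table deposited under AKR, and Lung met means 702, 1140.2, 315, 432 and 871. Log2 ratios were 0.49, 1.40, 0.46, 1.25 and 1.64, past 2-fold in C3Tag, SEAGN and the table deposited under AKR. Prelp ranked between 2 and 6 among the members per kb in PT and 2 or 3 in Lung met. Its exons share 350 bases, 9.68% of their length, with Gm15851 on the opposite strand. The quotient of Lum to Prelp per kb was 0.743 to 4.73 in PT and 0.0162 to 0.172 in Lung met, lower in Lung met in all 5 tables.

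Osteoglycin (Ogn, also called mimecan), a class III keratan sulfate member of loose connective tissue and vessel walls, was higher in Lung met in all 5 tables by a wide span of ratios. The PT means were 171, 278, 47.9, 53.6 and 161, and the Lung met means 234, 349, 54.7, 139.5 and 481. Log2 ratios were 0.45, 0.33, 0.19, 1.38 and 1.58, with SEAGN and the table deposited under AKR past 2-fold and the other 3 tables between 0.19 and 0.45. Aspn, which lies 40.5 kb upstream of Ogn on the same strand, was lower in Lung met in the same 5 tables. The quotient of Aspn to Ogn per kb was 1.32 to 4.14 in PT and 0.322 to 1.31 in Lung met. In 4 tables, all but Her2, Ogn was therefore below Aspn in PT and above it in Lung met.

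Chondroadherin (Chad), a class IV member without glycosaminoglycan chains that is best known from cartilage, varied most between tables. Its PT mean was 942 in Her2, 69.2 in C3Tag, 55.2 in BALB, 273 in SEAGN and 296 in the table deposited under AKR, against 764, 155, 7.03, 19.9 and 70.3 in Lung met. Log2 ratios were -0.30, 1.17, -2.97, -3.78 and -2.07, a range of 4.95. The 3 PyMT-F1 tables were lower past 2-fold, Her2 was nearly level and C3Tag was higher past 2-fold. In Her2, Chad ranked 2 among the members per kb in both tissues, at percentile 85.2 of genes with an exon length in PT and 81.7 in Lung met. It was the lowest of the members in C3Tag PT. Acsf2, which spans Chad on the other strand, had the sign of Chad in all 5 tables, with log2 ratios of -0.47, 0.56, -0.51, -1.88 and -0.62, and the part of shared reads was not tested. Of 13 cartilage markers, 5 to 8 had means in a table, with list medians of -0.23 to 0.19 and summed means in Lung met of 0.772 to 1.18 times those in PT. Col2a1, which defines cartilage, had means in C3Tag (279 in PT and 1899 in Lung met) and in BALB (44.2 and 51.0) and in no other table. Within Her2, 7 of the 8 markers with means were lower in Lung met and 1, Matn4, was higher. Col9a1 had means of 46796 in PT and 40601 in Lung met, Comp of 7159 and 6161, Cnmd of 722 and 243, Snorc of 26.9 and 24.1 and Matn4 of 8.98 and 70.9. Col9a1, Comp, Cnmd and Snorc were named after their values were seen. The part of such cells in the Chad values was not tested.

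Set beside all genes, the lower side of the family held a larger share of its genes past 2-fold than all genes did in each table, and the higher side did so in C3Tag, SEAGN and the table deposited under AKR. Past 2-fold lower in Lung met were 3 of 7 members in Her2 (Lum, Dcn, Aspn) against 1.43% of all genes with means, 2 of 8 in C3Tag (Lum, Aspn) against 1.7%, 3 of 8 in BALB (Lum, Chad, Aspn) against 2.4%, 4 of 8 in SEAGN (Lum, Chad, Dcn, Aspn) against 3.22%, and the same 4 in the table deposited under AKR against 1.73%. Past 2-fold higher were 0 members in Her2 against 2.38% of all genes, 2 in C3Tag (Prelp, Chad) against 7.42%, 0 in BALB against 2.26%, 2 in SEAGN (Ogn, Prelp) against 2.86% and 2 in the table deposited under AKR (Prelp, Ogn) against 7.31%. The median log2 ratio of the members was -0.30 in Her2, 0.54 in C3Tag, -0.80 in BALB, -1.02 in SEAGN and -0.54 in the table deposited under AKR, while the median of all genes was near 0 in each. These counts describe means and carry no test, and the members were chosen with earlier results of these data known.

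**Figure D3:**
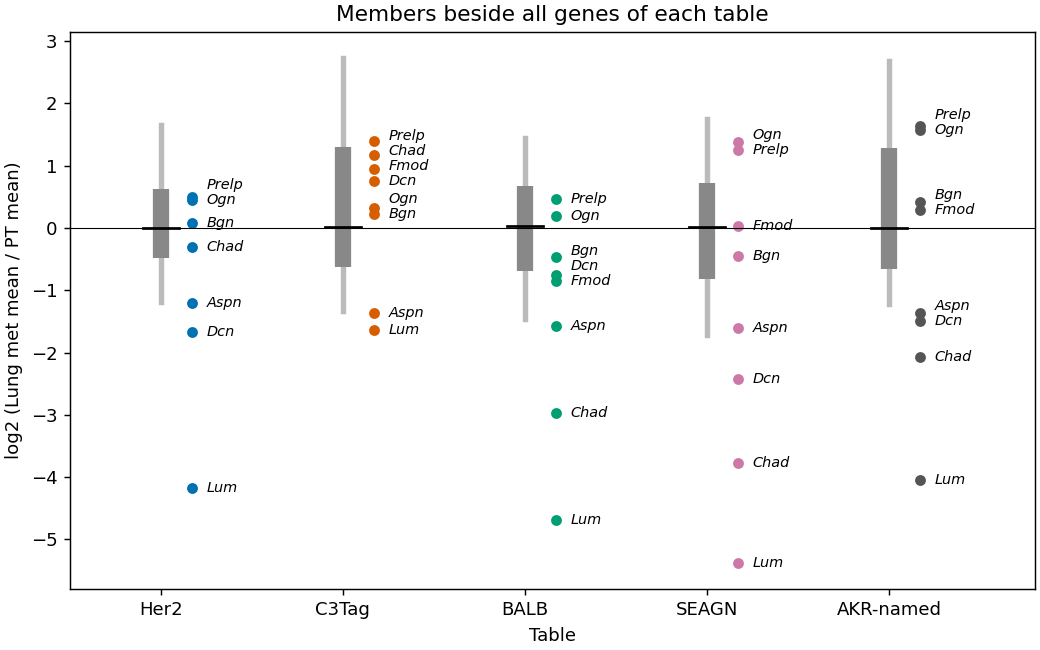
The log2 ratio of Lung met over PT group means (vertical axis) of the members (coloured points, labelled) beside all genes of each table (horizontal axis). The thick grey bar spans the 5th to 95th percentile of all genes, the thin bar the 1st to 99th, and the black tick is the median. Lum lies below the 1st percentile in all 5 tables, and Aspn does so in Her2, C3Tag, BALB and the table deposited under AKR.

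The make-up of the family changed with these ratios. Bgn made up 30.4% to 53.1% of the members' summed level per kb in PT and 40.6% to 59.9% in Lung met. The share of Lum was 8.73% to 19.0% in PT and 0.404% to 2.78% in Lung met, and that of Aspn 6.87% to 14.1% and 2.84% to 7.77%. Prelp held 4.02% to 11.8% in PT and 12.6% to 24.96% in Lung met, and Ogn 2.69% to 6.72% and 5.90% to 11.4%. Chad held 28.7% of the sum in Her2 PT and 29.5% in Her2 Lung met, but 21.0% and 2.47% in SEAGN. In Her2 the sum runs over 7 members, without Fmod.

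**Figure D4:**
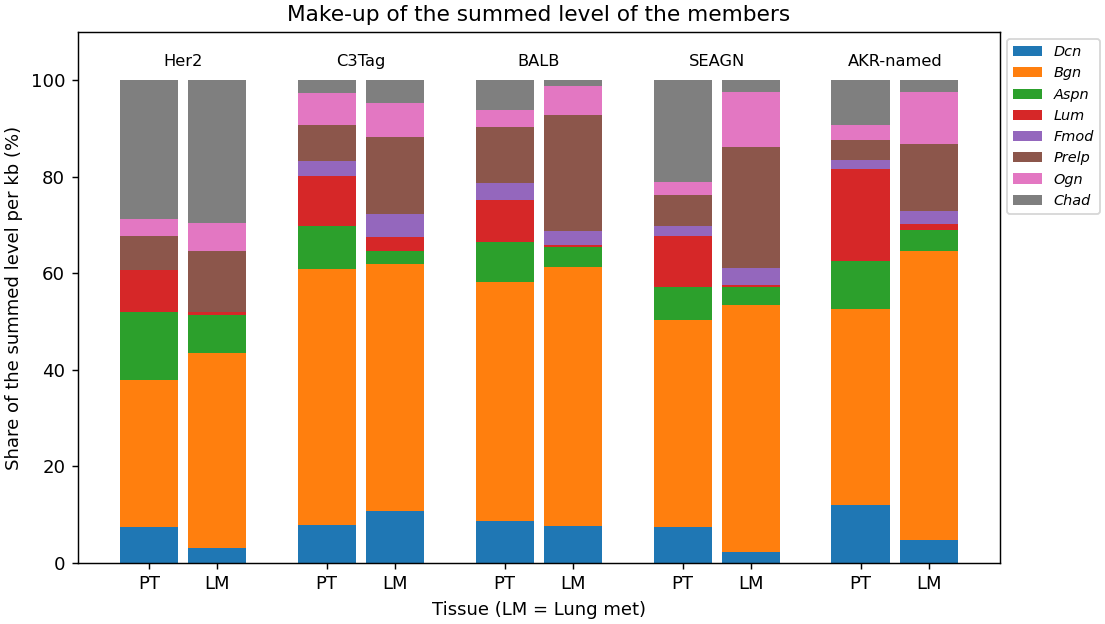
Share in percent (vertical axis) of each member in the summed group mean per kb of exon, in PT and Lung met (LM) of each table (horizontal axis), with "AKR-named" standing for the table deposited under AKR. The red Lum segment goes from 8.73% to 19.0% in PT to under 3% in every Lung met bar, and the brown Prelp segment is larger in Lung met than in PT in all 5 tables.

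Of 11 further SLRP genes, 6 or 7 had means in a table. Omd, which lies between Aspn and Ogn, was lower in Lung met in 5 of 5 tables with log2 ratios of -1.18 to -0.59, and Ecm2, upstream of Aspn, was lower in 5 of 5 with ratios of -0.78 to -0.02. Along this stretch of chromosome 13, Ecm2, Aspn and Omd were thus lower in Lung met in all 5 tables and Ogn was higher. Podn was lower in 4 of 5 (-1.21 to 0.04) and Lrrc17 in 3 of 3 (-2.60 to -0.44). Tsku, a secreted Wnt and BMP modulator, was lower only in Her2 among 5 tables, with a median of 0.50. Chadl, related to Chad, had ratios of -0.42 in Her2, 0.72 in C3Tag and 0.94 in the table deposited under AKR, Podnl1 ran from -0.84 to 0.83 over 4 tables and Nyx from -0.22 to 0.51 over 3. Kera, Epyc and Optc had no means.

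The collagens to which SLRPs bind were lower in Lung met as a list. Of 12 chains of fibrillar, fibril-associated and type VI collagens (the fibril list), 12 were lower in Her2, 9 in C3Tag, 11 in BALB, 12 in SEAGN and 11 in the table deposited under AKR, and past 2-fold 9, 1, 10, 10 and 6. Their median log2 ratios were -1.22, -0.20, -1.52, -1.94 and -1.05, against all-gene medians near 0. Col12a1, a fibril-associated collagen, had the lowest median ratio (-2.50, from -3.29 to -1.36), followed by Col6a2 (-1.55), while Col11a1 (-0.29) and Col5a2 (-0.34) stood at the upper end. C3Tag, where Dcn was higher in Lung met, was also the table with the fewest collagens past 2-fold lower.

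Among enzymes that build the chains of SLRPs, the 20 or 21 of 22 linker and chondroitin or dermatan sulfate enzymes with means had medians of -0.08 to 0.21 over the tables and summed Lung met means of 0.861 to 1.29 times those in PT, and Chst3, a chondroitin sulfotransferase, had the highest median of them (0.99, higher in 5 of 5). Csgalnact1 (-0.27, lower in 4 of 5) and Chpf2 (-0.26, lower in 3 of 5) had the lowest. The 7 or 8 of 9 keratan sulfate enzymes had medians of 0.08 to 0.41 and summed means of 1.15 to 1.48 times those in PT. Of them, 6 of 7 were higher in Her2, 7 of 7 in C3Tag, 5 of 7 in BALB, 4 of 7 in SEAGN and 7 of 8 in the table deposited under AKR. Their PT sums of 2777 to 9746 rested mostly on B4galt1, which had PT means of 2083 to 7836 and log2 ratios of 0.13 to 0.60. B3gnt7, which extends keratan sulfate, was higher in Lung met in 5 of 5 tables and past 2-fold in 4, with PT means of 26.3 to 229 and Lung met means of 39.3 to 1590.1. B4galt4 (-0.11, lower in 3 of 5) and St3gal3 (0.14, higher in 5 of 5) had the lowest medians of this list. Among 13 processing proteases, Mmp2, a gelatinase that can cleave decorin, was lower in 5 of 5 (-2.13 to -0.28) and Mmp13 was lower in 5 of 5 (-4.48 to -0.11), whereas Adamts1 was higher in 5 of 5 (0.17 to 1.49). Pcolce2, an enhancer of procollagen processing, had the highest median of this list (0.64 over 4 tables) without a common sign, at -0.22 in Her2, 2.10 in C3Tag, -0.17 in BALB and 1.44 in the table deposited under AKR. The protease list medians ran from -0.86 in SEAGN to 0.23 in the table deposited under AKR. Of 17 SLRP receptors and ligands, list medians were 0.19 to 0.34, with Itga2 (median 1.01) and Igf1 (0.65), both higher in 5 of 5 tables, at the top. Lrp1 (-0.17, lower in 3 of 5) and Egfr (-0.06, lower in 4 of 5) stood at the bottom.

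**Figure D5:**
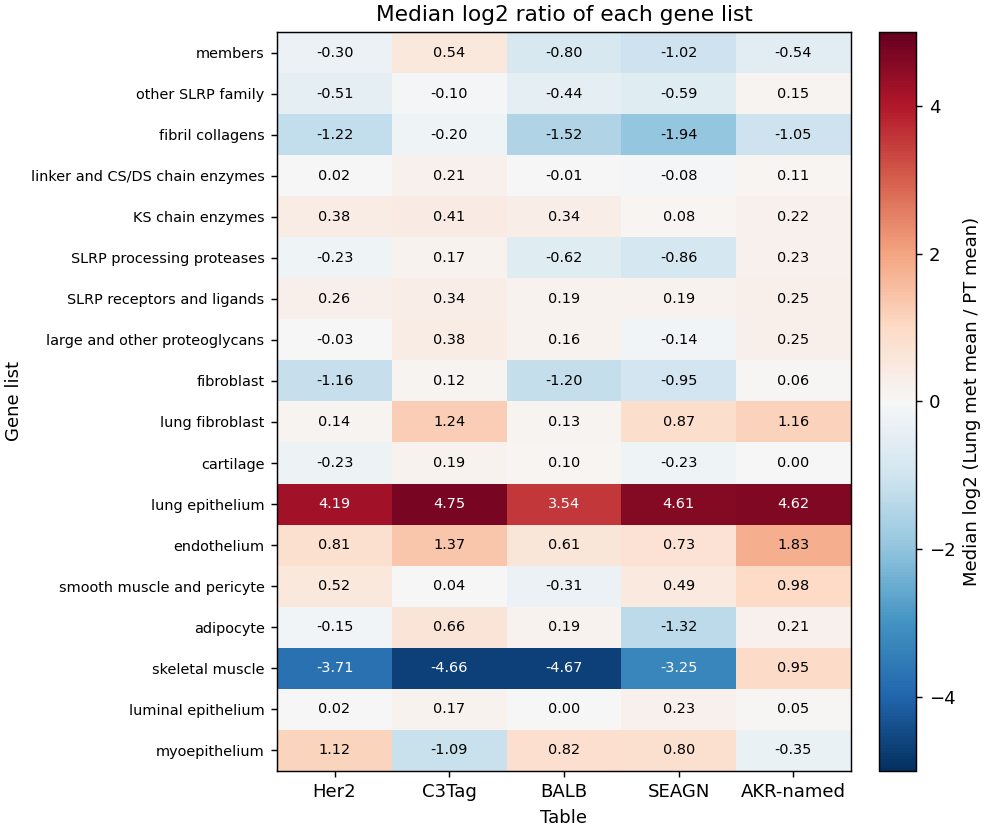
Median log2 ratio of Lung met over PT group means (colour and printed value) of the members and of each gene list (vertical axis) in each table (horizontal axis), with "AKR-named" standing for the table deposited under AKR. CS/DS stands for chondroitin and dermatan sulfate and KS for keratan sulfate. Lung epithelium markers are the highest list in all 5 tables (3.54 to 4.75), and fibril collagens are below 0 in all 5.

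Markers of other cell types moved with the tissue in these bulk samples, in which fewer cells of a type and less RNA per cell cannot be told apart. Lung epithelium markers, of which 6 or 7 of 11 had means, summed to 4.48 to 36.2 times the PT value in Lung met, and Lamp3, a defining marker of alveolar type II cells, was higher in 5 of 5 tables (Lung met means of 187 to 7280, PT means of 3.12 to 139.6). Foxj1 had the lowest median of this list (0.45 over 4 tables, from -0.42 to 0.94). All 8 endothelium markers had means, and their summed ratio was 1.59 to 3.59. Skeletal muscle markers, of which 1 to 4 of 6 had means, summed to 0.0244 to 0.105 of the PT value in 4 tables and to 1.64 in the table deposited under AKR. Luminal epithelium markers, 5 or 6 of 6, summed to 0.99 to 1.13. Myoepithelium markers, 3 to 5 of 5, summed to 0.394 of the PT value in C3Tag and to 2.13 in BALB, with the other tables in between. Adipocyte markers, 1 or 2 of 7, summed to 0.244 in SEAGN, where Fabp4 had a log2 ratio of -2.73, and to 0.771 to 1.14 in the other tables. The 2 markers with means went opposite ways. Fabp4 was lower in 4 of 4 tables, and Pparg was higher in 5 of 5 (0.09 to 1.90). In SEAGN PT, Fabp4 held 125.9 of the summed 140.3, and in BALB only Pparg had means. Smooth muscle and pericyte markers, 5 to 8 of 8, summed to 0.916 to 1.41. The part of these shifts in the ratios of the members was not tested.

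Fibroblast markers, the list closest to the source of SLRPs, also had members on both sides. Of 12 markers 10 to 12 had means, with list medians of -1.16 in Her2, 0.12 in C3Tag, -1.20 in BALB, -0.95 in SEAGN and 0.06 in the table deposited under AKR, and summed ratios of 0.951 to 1.94. These sums mainly follow Fn1. In Lung met it held 8168 of the summed 12138 in Her2, 113230 of 125477 in C3Tag and 5225 of 6833 in BALB. In SEAGN it held 5732 of 8089, and in the table deposited under AKR 12093 of 18638. Pi16 (median -2.57, lower in 4 of 4 tables) and Thy1 (-2.10, lower in 5 of 5) had the lowest ratios, and Pdpn (1.14) and Fn1 (1.02), both higher in 5 of 5, the highest. Of the rest, Fap, Postn and Mfap5 were lower in 5 of 5 tables and Fbln1 in 4 of 4. Pdgfra was higher in 5 of 5, and Pdgfrb, Dpt and Clec3b had no common sign. Lung fibroblast markers, 4 to 6 of 8 with means, had medians of 0.13 to 1.24. Their lowest medians were those of Npnt (0.13, from -0.73 to 0.83) and Itga8 (0.32, higher in 5 of 5 tables), and their highest those of Limch1 (0.69, from -0.05 to 1.65) and Fgf10 (3.03), which was listed in 3 tables with low PT means of 2.47 to 4.42 and Lung met means of 12.2 to 37.5. Npnt and Itga8 were not confined to lung tissue here. Their PT means ran from 686 to 41503 and from 497 to 11170, each highest in Her2. No sample values were at hand to set these markers against the members within a tissue, and their part in the results was not tested.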

How the data were processed

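RNA of PT and Lung met was sequenced by the authors from total RNA (ribosomal RNA depleted and stranded per the labels, mRNA libraries in the study's methods). Reads were aligned and counted per gene in Partek Flow (STAR 2.7.8a in the submitters' processing notes), and the named genome builds differ between sources. The deposited values are a normalized signal, the least-squares mean of normalized counts per tissue, and the method of normalization is not given in the sources used here. The tables also hold the authors' own ratios, fold changes, p-values and false discovery rates (Gene Specific Analysis for driver models, DESeq2 for PyMT-F1), which were not used. The Myc table holds nothing else. No depth or sample value is in the tables, and no interval or test was computed.

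Log2 ratios were the log2 of the Lung met mean over the PT mean within a table (Python 3.11.15, pandas 2.3.3), without pseudocount or filter, and "past 2-fold" is a description. Levels per kb used the union exon length of GENCODE M21, and percentiles per kb run over genes with such a length. These were 82.5% of genes with means in BALB and SEAGN and at least 99.8% in the other tables. Only the 2-fold counts and the search for genes of similar pattern were run on simulated data. Those data held planted values without noise in the ratios, so the run checks the code alone. Rows without a numeric mean were left out. Genes picked for naming were the members, all further SLRPs and, for each of the other lists, the 2 lowest and 2 highest median ratios among genes in at least 3 tables, plus the 5 genes nearest in pattern to the members' median, Dcn and Chad. Of some lists only part of these genes, or none, is named above. Other genes are named for their overlap with a member or as a marker that defines a tissue. Col9a1, Comp, Cnmd, Snorc, B4galt1 and the rest of the fibroblast list were named after their values were seen. Members and lists were chosen with earlier results of these data known. PyMT-F1 samples were grouped by title, and which samples entered each table is not given per sample. Promoter sequences are from RefSeq. Alternatives were another fold, a mean of at least 10, a pseudocount of 1, centring on the median of all genes, and leaving out the table deposited under AKR.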

Additional observations from a re-analysis of the deposited data

How the results depend on the processing

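Of 141 values recomputed under the alternatives, 129 moved by less than the tolerance (0.1 on the log2 scale, or 1.5 times for a count), and 12 moved further, among them the median of Bgn, which changed sign. A fold of 1.5 in place of 2 raised the members higher in Lung met in C3Tag to 4 and the members lower in BALB to 5. Leaving out the table deposited under AKR, whose strain is uncertain, gave medians over the tables of -1.22 for Dcn, -0.18 for Bgn (0.08 with it), -1.47 for Aspn, -4.43 for Lum, 0.034 for Fmod, 0.87 for Prelp and -1.64 for Chad. The sign of the Bgn median rests on that table. A pseudocount of 1 gave Lum log2 ratios of -4.41 in BALB and -5.12 in SEAGN and a Chad ratio of -2.81 in BALB, where the Lung met means were under 10. Centring and the minimum mean moved no value past the tolerance, and they could hardly do so. The all-gene medians lay within 0.03 of 0, and the lowest PT mean of a member was 47.9. Of the 129 values, centring gave 39 for single genes and 15 others, and the minimum mean gave 15. These values therefore say little on stability. No paired analysis was possible because the tables hold no values of single samples, and for the same reason no replicate could be left out. Depth per sample is unknown.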

Other observations

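Proteoglycans of other families gave a larger difference than any SLRP on the higher side. Spock2, a testican that carries heparan and chondroitin sulfate, was higher in Lung met past 2-fold in 5 of 5 tables, with PT means of 24.0 to 92.8, Lung met means of 144 to 1194 and log2 ratios of 1.96 to 4.65. Gpc3, a glypican of the cell surface, was higher in 5 of 5 tables (0.48 to 2.73) and past 2-fold in 3. Prg4, the lubricating proteoglycan of joints, was lower in 5 of 5 (-2.28 to -0.11), and Esm1, an endothelial proteoglycan, ran from -1.25 to 0.88. Over the 15 to 17 of 20 genes of this list with means, medians were -0.14 to 0.38.

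Matn4, a matrilin counted among the cartilage markers, was higher in Lung met in 5 of 5 tables with log2 ratios of 0.42 to 2.98, while Sox9, the cartilage transcription factor that mammary epithelium also expresses, ran from -0.53 to 0.47.

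By the root mean square difference of log2 ratios over the 5 tables among 11913 candidate genes, the genes nearest to the members' median were P4htm (0.155), Tmem154 (0.156), Srebf1 (0.157), Ripk2 (0.177) and Fbn1 (0.180). Nearest to Dcn were F13a1 (0.441), Dpyd (0.510), Col5a3 (0.549), Col6a3 (0.557) and C1qtnf6 (0.576), with 2 collagen chains from the fibril list among them. Those nearest to Chad were farther away, namely Scara3 (0.944), Zfp423 (0.946), Col8a1 (0.969), Cd300lg (0.997) and F13a1 (1.02). The differences were not scaled to the size of the target's ratios, which ran from -3.78 to 1.17 for Chad and from -2.42 to 0.75 for Dcn. They therefore do not rank how unusual the targets are.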
